A study of Mus musculus with 30 samples.

Results

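Potassium channel genes were followed through the loss and repair of mouse tibialis anterior, a fast muscle of the shin. All gene symbols of the count tables that begin with Kcn and continue with letters and a final number were taken, which gave 92 members of 26264 symbols. No measured value entered the rule. By symbol stem the members fall into 40 pore-forming voltage-gated subunits, 15 inward rectifiers, 14 two-pore channels and 15 accessory subunits. The other 8 form a calcium- and sodium-activated class, in which Kcnu1 was placed by its symbol alone.

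The series measured total RNA of whole muscle from male and female mice. Muscle was either uninjured or had undergone volumetric muscle loss, the removal of a block of tissue too large for normal regrowth, and was taken at 4, 7, 11 or 15 days after injury. Each of the 10 combinations of sex and time has 3 libraries, which makes 30 libraries and 6 at each time. The labels give sex, tissue, injury and day but no strain, genotype or age, and do not say whether uninjured muscle came from other animals or from the opposite leg. They also do not say that the 3 libraries of a group are separate animals, so each p-value reflects variation among the sequenced libraries, which may be technical.

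Potassium channels let potassium leave or enter a cell down its gradient and so set its resting potential and end its action potentials. In fast muscle fibres, voltage-gated (Kv) channels repolarise the membrane after each spike, inward rectifiers (Kir) hold the resting potential, and the ATP-sensitive Kir6.2 channel couples excitability to energy supply. Macrophages, lymphocytes and fibroblasts use other members, among them two-pore leak channels (K2P) and the calcium-activated channel KCa3.1, to keep the membrane negative while calcium enters. Because whole tissue was measured, fewer cells of a type and less RNA per cell cannot be told apart.

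Library totals ran from 13089999 to 57277336 counts, with the lowest totals at day 15. The summed counts of 13 mature fast fibre genes, the marker list of the labelled tissue, were 392700 to 560500 CPM (counts normalised to library size) in uninjured muscle and 10430 to 68340 CPM at day 4, so the fibre share of the RNA moved with the comparisons of injured with uninjured muscle. All 13 were lower at days 4 and 7 and 12 of 13 at days 11 and 15, and 9 of 13 were higher at day 15 than at day 4. The lowest day 4 value is the library female day 4 replicate 2. Its neighbours ran from 45510 to 68340 CPM. The library labelled female day 11 replicate 3 held 0.109 CPM of Xist and 57.4 CPM of Ddx3y, a male pattern that goes against its label. It was kept under its label. The day 11 counts of called members, and some but not all day 11 values of named members, are also given without it. CPM here is scaled to effective library sizes, in which edgeR's trimmed mean of M-values corrects for the few very abundant fibre transcripts of uninjured muscle.

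Of the 92 members, 65 passed the filter on low counts and were tested among 17136 genes. They were 28 of 40 voltage-gated members, 11 of 15 inward rectifiers, 7 of 14 two-pore channels, 8 of 8 calcium- and sodium-activated channels and 11 of 15 accessory subunits. The 27 others never reached a mean above 0.273 CPM at any time, and 10 of them had no counts in uninjured muscle. Kcng3 had none in any library. Kcna3, the Kv1.3 channel of T cells, was among the untested members, with 28 counts over the 6 day 4 libraries and 0 in uninjured muscle. A mean of at least 1 CPM was reached by 28 members in uninjured muscle, 32 at day 4, 40 at day 7, 43 at day 11 and 42 at day 15.

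Summed over all members, potassium channel transcripts stood at 2032 ± 242 CPM (SD, n = 6) in uninjured muscle, 491.7 ± 71.1 CPM at day 4 and 538 ± 95.8 CPM at day 15. Their share of all counts, without the scaling, was 0.107 ± 0.00996%, 0.0635 ± 0.0072% and 0.0576 ± 0.00756% at these times. The mean scaling factor was 0.527 in uninjured muscle and 1.3 at day 4, so the fall in CPM is larger than the fall in share. The class sums differed in direction. Voltage-gated members summed to 1296 ± 158 CPM in uninjured muscle and 263.9 ± 56.3 CPM at day 4, and inward rectifiers to 617.4 ± 75.9 CPM and 105.8 ± 26.1 CPM. Calcium- and sodium-activated members went from 103.5 ± 17.9 to 54.5 ± 5.25 CPM. Two-pore members went from 6.51 ± 1.14 to 31.4 ± 5.82 CPM, and accessory subunits from 8.67 ± 1.77 to 36.0 ± 5.76 CPM. On the CPM scale, in none of the 5 classes did the 6 uninjured libraries overlap with the 6 day 4 libraries. These sums are descriptions and were not tested.

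**Figure D1:**
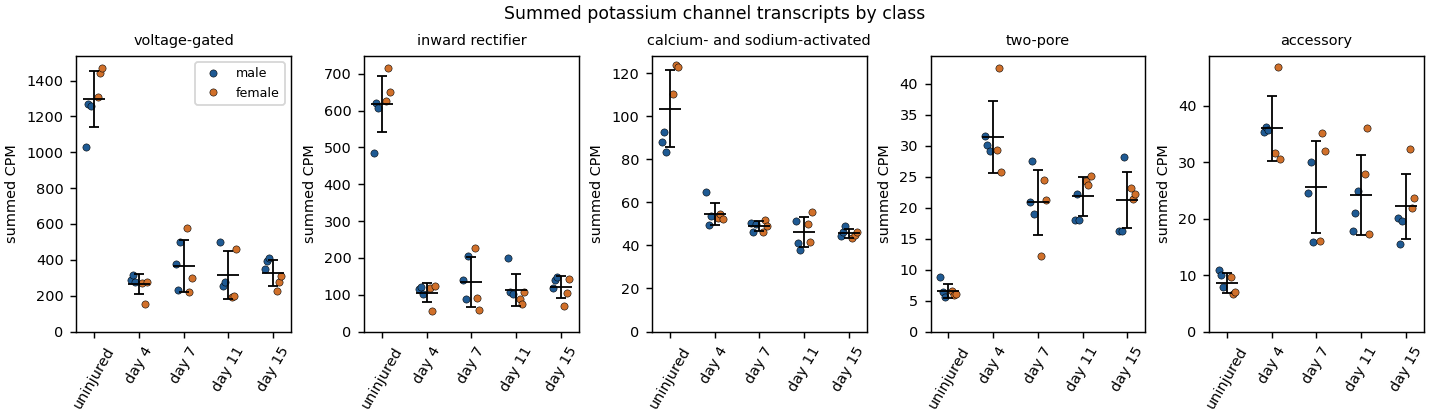
Summed CPM of each potassium channel class (vertical axes, linear from 0) in each of the 30 libraries at the 5 times (horizontal axes), with male libraries in blue and female libraries in orange; black bars are the mean ± SD of the 6 libraries of a time. Voltage-gated and inward rectifier sums stand high only in uninjured muscle, while two-pore and accessory sums are lowest there.

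The balance of the family changed with the loss of the fibre channels. Per kilobase of exon, the highest member of uninjured muscle was Kcna7 at 247.5 ± 58.9 CPM per kilobase (SD, n = 6), followed by Kcnj11 at 98.4 ± 17.5, Kcnc4 at 69.8 ± 18.9, Kcnj12 at 58.4 ± 4.97 and Kcng4 at 31.3 ± 12.8. Kcnc4 and Kcnj12, neighbours in that order, lie within their spread, whereas Kcna7 and Kcnj11 do not. Further down, Kcnn1 at 12.7 ± 3.93 CPM per kilobase and Kcnj2 at 12.7 ± 4.58 lie within each other's spread. At day 4 Kcna7 stood at 22.0 ± 13.3 CPM per kilobase and Kcnj11 at 13.1 ± 4.98, within each other's spread. By that time Kcnab2, Kcnk13 and Kcnn4, all under 1 CPM per kilobase in uninjured muscle, had entered the 10 highest members with 4.32 ± 0.882, 4.13 ± 0.866 and 3.99 ± 1.09. At day 15 Kcna7 was the highest member with 25.6 ± 9.50 CPM per kilobase.

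Against uninjured muscle, 44 of the 65 tested members passed the test at day 4, 23 higher and 21 lower, beside 73.1% of all tested genes (40.1% higher and 33% lower). At day 7 there were 29 higher and 19 lower, beside 71.5% of all genes (41.6% and 29.9%). At day 11 there were 35 higher and 16 lower, beside 72.4% (42.7% and 29.7%), and at day 15 there were 31 higher and 13 lower, beside 69% (39.7% and 29.3%). All calls use edgeR's quasi-likelihood test with Benjamini-Hochberg adjustment over all tested genes and a threshold of 0.05. The share of members called is near that of all genes at each day. The median log2 fold change of the members was 0.11, 0.63, 1.10 and 0.87 at days 4, 7, 11 and 15, beside 0.17, 0.24, 0.32 and 0.26 over all genes. Libraries of the injured and uninjured groups did not overlap for 35, 30, 25 and 23 members at the 4 days, beside 56.9%, 44.2%, 46.2% and 45.2% of all genes.

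These splits depend on the scaling and on the filter. Some members with few or no counts in uninjured muscle passed the filter through the injured groups. Requiring CPM above 1 in 3 libraries left 49 members among 14926 genes. At day 4, 16 of these members were higher and 19 lower, beside 5888 and 5526 of all genes, with medians of -0.23 and 0.05. At days 7, 11 and 15 the members' medians were 0.53, 0.84 and 0.88, beside 0.12, 0.18 and 0.16 over all genes. Scaled to library size alone, the median of all genes moved to 1.47, 1.42, 1.46 and 1.30 at the 4 days, and the members split into 38 higher and 15 lower, 42 and 10, 44 and 10, and 40 and 9. With that scaling the calls of Kcnf1, Kcnj2 and Kcnj8 at day 4, Kcna2 and Kcnn2 at day 7, Kcnf1 and Kcnn2 at day 11, and Kcnj2 and Kcnc1 at day 15 were among those lost, all of these with log2 fold changes below 0. Without the library labelled female day 11 replicate 3, day 11 had 30 members higher and 16 lower.

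By class, the voltage-gated members divided, with 8 higher and 11 lower of 28 at day 4 and 10 higher and 7 lower at day 15. Inward rectifiers divided too, with 4 higher and 5 lower of 11 at day 4 and 4 of each at day 15. The calcium- and sodium-activated class had 3 higher and 5 lower of 8 at day 4, and 4 higher and 2 lower at day 15. In the two-pore class 4, 6, 6 and 5 of 7 were higher at days 4, 7, 11 and 15 and the others did not pass. Among accessory subunits 4, 5, 8 and 8 of 11 were higher, and the 1 lower call was Kcnab1 at day 7. Beside these classes, 40.1%, 41.6%, 42.7% and 39.7% of all genes were higher at the 4 days, and 33%, 29.9%, 29.7% and 29.3% lower. At day 4, 36.4% of accessory subunits were called, beside 73.1% of all genes.

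Across the 4 days, 20 members were higher at every day, 13 were lower at every day, and 1, Kcnt1, was lower at day 4 and higher at days 11 and 15. Another 8 members (Kcng1, Kcnip4, Kcnj3, Kcnk1, Kcnmb1, Kcnq3, Kcnq5 and Kcns1) passed at none of the 4 days. The 4 comparisons share the uninjured libraries and are not independent of each other. The same counts were not made over all genes, so they describe the members and do not set them apart. At each day 69% to 73.1% of all genes were called.

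**Figure D2:**
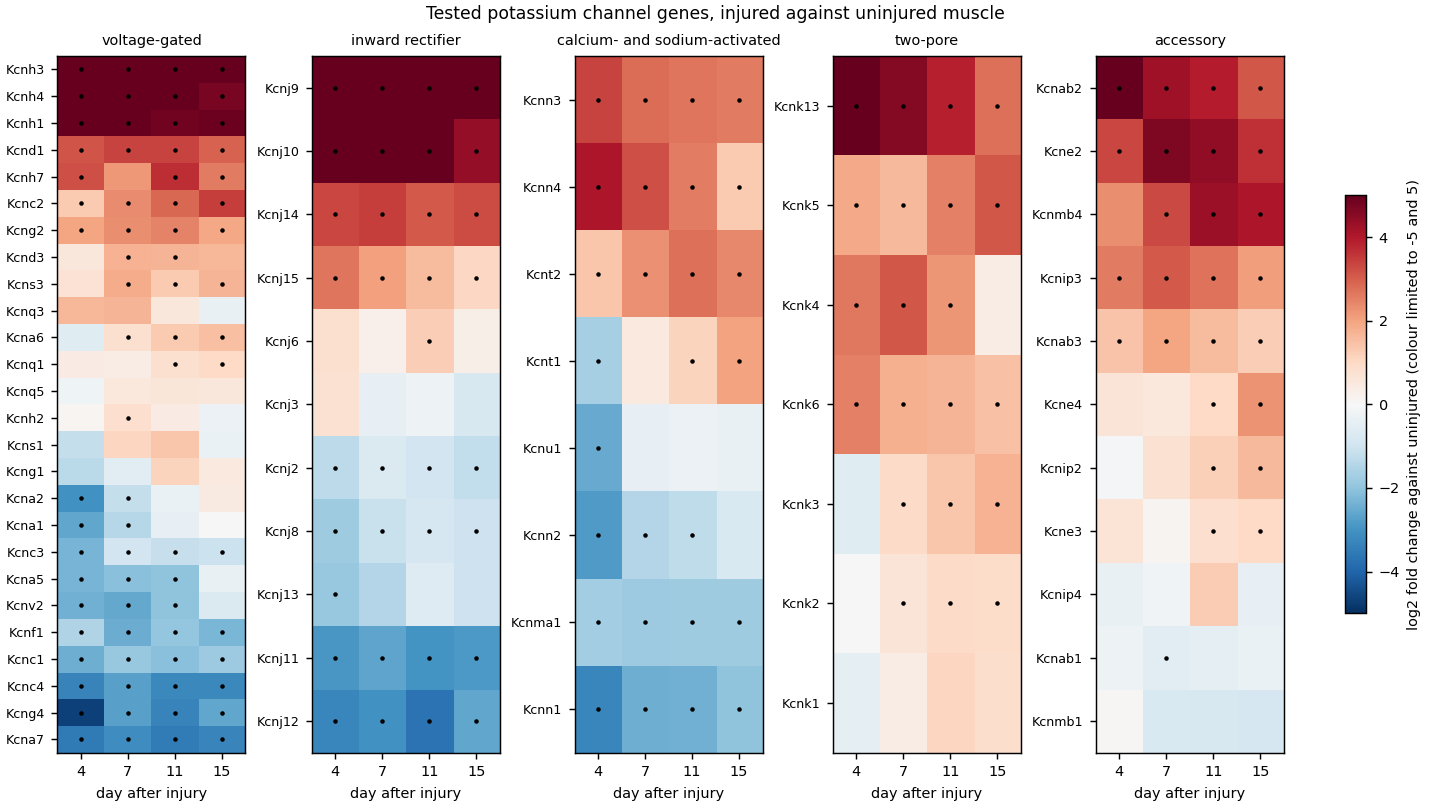
Log2 fold change against uninjured muscle (colour, limited to -5 and 5) of 63 of the 65 tested members, in rows by class, at days 4, 7, 11 and 15, in columns; a black dot marks an edgeR adjusted p under 0.05. Two-pore and accessory panels are mostly red, the other 3 hold both directions, and the fitted values of members near 0 in uninjured muscle (Kcnh1, Kcnh3, Kcnh4, Kcnj9 and Kcnj10) depend on the prior count.

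The voltage-gated channels of fast fibres lost most of their transcript by day 4 and had not returned by day 15. Kcna7 encodes Kv1.7, a member of the Shaker family expressed in skeletal muscle and heart. It ran from 340 to 692 CPM in uninjured muscle (median 556) and from 6.41 to 95.7 CPM at day 4 (median 45.4). At day 15 it ran from 23.7 to 77.2 CPM (median 64.2). Every injured library lay below every uninjured one. The log2 fold change was -3.52 ± 0.57 at day 4 (SE, edgeR adjusted p = 5.74e-06) and -3.29 ± 0.57 at day 15 (edgeR adjusted p = 1.65e-05).

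Kcnc4 and Kcnc1 encode Kv3.4 and Kv3.1, channels that open only at strong depolarisation and close fast, as high firing rates need. Kcnc4 ran from 145 to 318 CPM in uninjured muscle (median 272) and from 2.22 to 38.4 CPM at day 4 (median 25.4). Its log2 fold change was -3.35 ± 0.55 at day 4 (edgeR adjusted p = 7.28e-06) and -3.22 ± 0.55 at day 15 (edgeR adjusted p = 1.50e-05). Kcnc1 ran from 145 to 228 CPM in uninjured muscle and from 13.98 to 50.4 CPM at day 4, and fell by 2.45 ± 0.44 on the log2 scale (edgeR adjusted p = 2.15e-05). For both genes the uninjured libraries stood apart from the injured libraries of all 4 days.

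Kcng4 encodes Kv6.4, a silent subunit that forms no channel alone and joins other voltage-gated subunits. Kcng4 ran from 71.3 to 181 CPM in uninjured muscle (median 101), from 0.0982 to 8.65 CPM at day 4 (median 4.92) and from 9.07 to 31.4 CPM at day 15 (median 18.9). All day 15 libraries of Kcng4 lay above all day 4 libraries and below all uninjured ones. The rise from day 4 to day 15 was 2.07 ± 0.76 on the log2 scale (edgeR adjusted p = 0.0248). Kcnf1, which encodes the silent subunit Kv5.1, was at 6.17 ± 2.57 CPM in uninjured muscle and 1.06 ± 0.265 CPM at day 7, a log2 fold change of -2.48 ± 0.42 (edgeR adjusted p = 1.07e-05).

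Single libraries set the size of several of these falls. Without female day 7 replicate 1 the day 7 log2 fold change of Kcna7 went from -3.11 to -4.22, that of Kcnc4 from -2.73 to -3.61, that of Kcnc1 from -1.91 to -2.79 and that of Kcng4 from -2.71 to -4.56. Kcng4 also went from -4.66 to -5.78 at day 4 without female day 4 replicate 3, and from -3.32 to -3.99 at day 11 without the library labelled female day 11 replicate 3. Kcnf1 went from -2.27 to -2.88 at day 15 without female day 15 replicate 3.

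**Figure D3:**
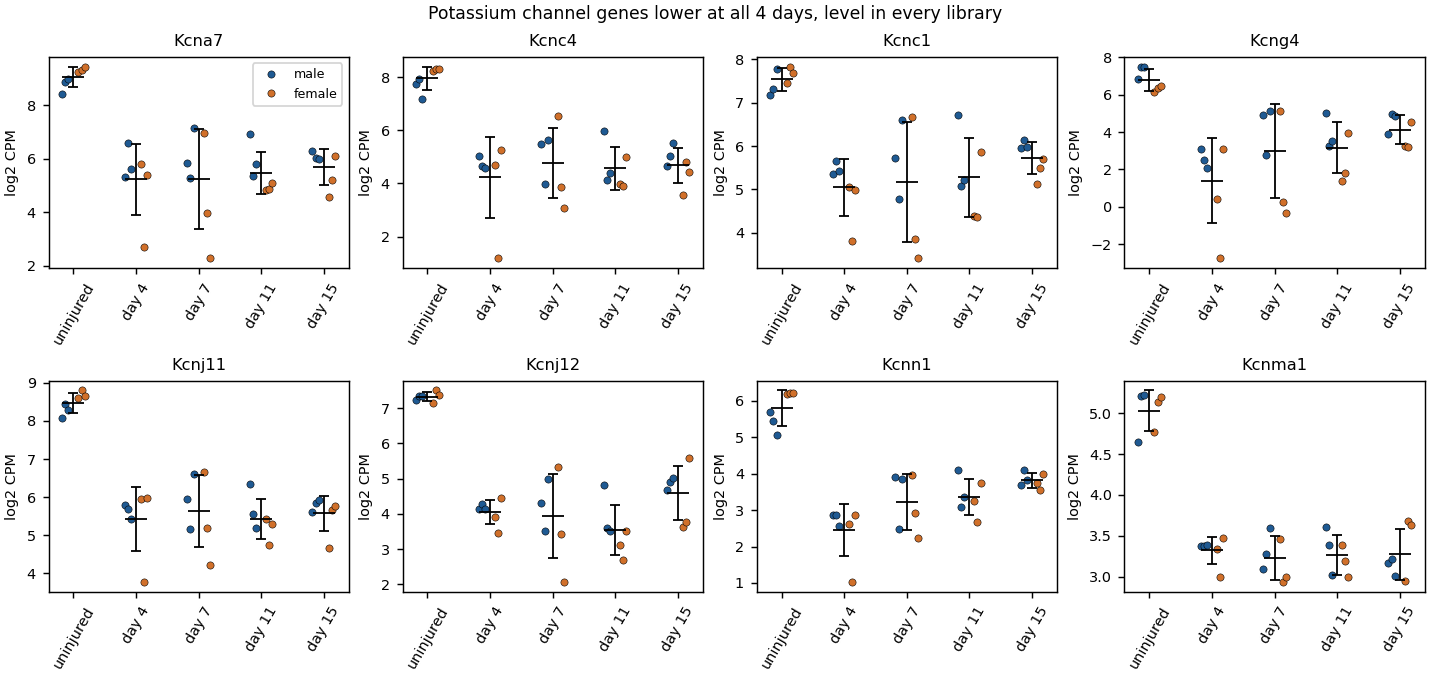
Log2 CPM (vertical axes, prior count 2) of 8 members that were lower at all 4 days, in each of the 30 libraries at the 5 times (horizontal axes), with male libraries in blue and female libraries in orange; black bars are the mean ± SD of the 6 libraries of a time. Uninjured libraries lie above all injured ones in each panel, and the spread between libraries is wider at days 4 and 7 than in uninjured muscle for most of the 8.

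Kcnq5 encodes Kv7.5, a slowly opening channel that stays open near the resting potential. It had 17.4 ± 5.83 CPM in uninjured muscle and 15.0 ± 6.65 CPM at day 4, and passed at no day. Its day 11 value of 0.60 passed without female uninjured replicate 2 (0.85, edgeR adjusted p = 0.0405) or female day 11 replicate 2 (0.79, edgeR adjusted p = 0.0370). Scaled to library size alone it passed as higher at all 4 days, with 1.07, 1.65, 1.77 and 1.59 (edgeR adjusted p from 4.18e-05 to 0.00511).

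The inward rectifiers of the fibre fell alongside. Kcnj12 and Kcnj2 encode Kir2.2 and Kir2.1, the channels that hold the resting potential of muscle. Kcnj12 ran from 142 to 182 CPM in uninjured muscle (median 162) and from 10.9 to 21.7 CPM at day 4 (median 17.6). Its log2 fold change was -3.24 ± 0.42 at day 4 (edgeR adjusted p = 1.68e-07), -3.71 ± 0.43 at day 11 (edgeR adjusted p = 4.19e-08) and -2.58 ± 0.41 at day 15 (edgeR adjusted p = 4.83e-06). Without female day 7 replicate 1 its day 7 value went from -3.03 to -3.69. Kcnj2 fell less far, from 69.0 ± 24.9 to 27.7 ± 5.26 CPM at day 4, a log2 fold change of -1.31 ± 0.25 (edgeR adjusted p = 5.34e-05). Its day 7 and day 11 values of -0.72 and -0.94 turned to 0.36 and 0.19 when libraries were scaled to size alone, and the day 7 call was lost without male uninjured replicate 3 (-0.53, edgeR adjusted p = 0.0630).

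Kcnj11 and Kcnj8 encode Kir6.2 and Kir6.1, the pores of ATP-sensitive channels in fibres and in vascular smooth muscle. Kcnj11 ran from 272 to 448 CPM in uninjured muscle (median 370), from 13.6 to 62.6 CPM at day 4 (median 53.5) and from 25.1 to 60.6 CPM at day 15 (median 52.1). Uninjured libraries did not overlap with those of any day after injury. The log2 fold change stayed between -2.63 ± 0.36 at day 7 (edgeR adjusted p = 6.86e-07) and -3.00 ± 0.37 at day 11 (edgeR adjusted p = 1.07e-07). Kcnj8 went from 24.5 ± 3.86 to 7.43 ± 2.89 CPM at day 4, a log2 fold change of -1.77 ± 0.27 (edgeR adjusted p = 2.62e-06). Its values of -1.09, -0.85 and -1.03 at days 7, 11 and 15 became 0.02, 0.28 and 0.01 with scaling to library size alone. The regulatory subunit genes Abcc9 and Abcc8, which encode SUR2 and SUR1, had log2 fold changes of -1.42 ± 0.29 and -0.83 ± 0.34 at day 4 (edgeR adjusted p = 9.24e-05 and 0.0330).

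Among the other inward rectifiers, Kcnj15 encodes Kir4.2 and ran from 0.229 to 1.52 CPM in uninjured muscle (median 0.427) and from 1.92 to 7.63 CPM at day 4 (median 3.26). It rose by 2.68 ± 0.42 on the log2 scale at day 4 (edgeR adjusted p = 3.35e-06) and by 1.03 ± 0.43 at day 15 (edgeR adjusted p = 0.0351). The highest uninjured library set its size: without male uninjured replicate 2 these values were 3.32 and 1.67, with 2.06 at day 7 and 1.59 at day 11 becoming 2.69 and 2.23. The day 15 call was lost without male uninjured replicate 1 (0.88, edgeR adjusted p = 0.0845), male uninjured replicate 3 (0.82, edgeR adjusted p = 0.0934), female uninjured replicate 1 (0.89, edgeR adjusted p = 0.0870), male day 15 replicate 2 (0.98, edgeR adjusted p = 0.0634) or female day 15 replicate 3 (0.84, edgeR adjusted p = 0.104).

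Among the calcium-activated channels, Kcnn1, Kcnn2 and Kcnma1 fell and Kcnn3 and Kcnn4 rose by day 4. Kcnn1 and Kcnn2 encode the small-conductance channels SK1 and SK2, and Kcnma1 encodes the large-conductance channel BK. Kcnn1 ran from 33.3 to 74.5 CPM in uninjured muscle (median 62.5), from 1.99 to 7.27 CPM at day 4 (median 6.62) and from 11.7 to 17.1 CPM at day 15 (median 13.7). The 3 groups did not overlap, and the log2 fold change went from -3.27 ± 0.31 at day 4 (edgeR adjusted p = 1.50e-09) to -1.99 ± 0.30 at day 15 (edgeR adjusted p = 2.62e-06). From day 4 to day 15 the gene rose by 1.27 ± 0.30 (edgeR adjusted p = 0.000940). Kcnma1 moved to a lower level and held it, at 33.1 ± 5.41 CPM in uninjured muscle and between 9.44 ± 1.78 and 10.02 ± 1.07 CPM at the 4 days. Its log2 fold changes lay between -1.72 ± 0.16 at day 4 (edgeR adjusted p = 7.97e-10) and -1.81 ± 0.16 at day 7 (edgeR adjusted p = 8.88e-10).

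Kcnn2 went from 5.66 ± 1.31 to 0.830 ± 0.395 CPM at day 4, a log2 fold change of -2.82 ± 0.54 (edgeR adjusted p = 4.40e-05). By day 15 it stood at 3.37 ± 0.848 CPM and no longer passed (-0.76 ± 0.51, edgeR adjusted p = 0.183). Its day 7 value of -1.47 became -2.08 without female day 7 replicate 1. Its day 11 call (-1.26 ± 0.51, edgeR adjusted p = 0.0287) was lost without male uninjured replicate 3, female uninjured replicate 2, male day 11 replicate 2, female day 11 replicate 1 or female day 11 replicate 2, with adjusted p from 0.0525 to 0.0735.

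Kcnn3 and Kcnn4 took the opposite course. Kcnn3 encodes SK3, known from immature and denervated muscle fibres, and Kcnn4 encodes KCa3.1, the intermediate-conductance channel of macrophages, lymphocytes and dividing fibroblasts. Kcnn3 ran from 0.842 to 2.57 CPM in uninjured muscle (median 1.61) and from 14.2 to 19.5 CPM at day 4 (median 15.0). It stayed up, with log2 fold changes of 3.37 ± 0.26 at day 4 (edgeR adjusted p = 4.01e-11) and 2.59 ± 0.25 at day 15 (edgeR adjusted p = 6.10e-09). Kcnn4 ran from 0.689 to 2.08 CPM in uninjured muscle (median 1.20), from 14.6 to 28.9 CPM at day 4 (median 18.7) and from 1.62 to 4.50 CPM at day 15 (median 3.22). All day 4 libraries lay above all uninjured and all day 15 libraries, while day 15 and uninjured libraries overlapped. The log2 fold change of Kcnn4 was 4.02 ± 0.38 at day 4 (edgeR adjusted p = 1.27e-09) and 1.32 ± 0.37 at day 15 (edgeR adjusted p = 0.00271), and the fall from day 4 to day 15 was -2.71 ± 0.35 (edgeR adjusted p = 1.61e-06).

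The summed level of 14 macrophage genes moved in the same direction as Kcnn4, from 50.3 to 75.9 CPM in uninjured muscle to 3849 to 5555 CPM at day 4 and 377.2 to 1680 CPM at day 15, and all 14 were higher at every day. The 10 fibroblast genes summed to 349.2 to 876.4 CPM in uninjured muscle and 7940 to 13380 CPM at day 4, with 9 of 10 higher, and 11 genes of regenerating fibres to 631 to 3596 CPM and 5171 to 7059 CPM, with 10 of 11 higher. The 9 T cell genes summed to 0.250 to 1.56 CPM and 24.7 to 32.3 CPM, with 8 of 9 higher. At day 15 the sums were 6235 to 18390 CPM for fibroblast, 784 to 2056 CPM for regenerating fibre and 6.65 to 20.6 CPM for T cell genes. From day 4 to day 15, 14 of 14 macrophage and 11 of 11 regenerating fibre genes were lower. Of T cell genes 1 was lower and 1 higher, and of fibroblast genes 0 were lower and 3 higher. The part of these cells in the rising channel transcripts was not tested.

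Two-pore channels carry the background potassium leak, and those of this family that passed were higher. Kcnk13 encodes THIK-1, a leak channel known from microglia. It ran from 0 to 0.561 CPM in uninjured muscle (median 0.176), from 10.7 to 17.6 CPM at day 4 (median 11.7) and from 0.970 to 1.97 CPM at day 15 (median 1.65). The 3 groups did not overlap. Its log2 fold change was 5.86 ± 0.62 at day 4 (edgeR adjusted p = 6.92e-09), 3.90 ± 0.60 at day 11 (edgeR adjusted p = 2.90e-06) and 2.74 ± 0.61 at day 15 (edgeR adjusted p = 0.000353). Kcnk6 encodes TWIK-2, a channel of endosomes and the cell surface described in macrophages. It went from 2.17 ± 0.408 CPM to 12.5 ± 2.97 CPM at day 4 and 6.17 ± 1.75 CPM at day 15, and rose by 2.53 ± 0.23 and 1.46 ± 0.23 on the log2 scale (edgeR adjusted p = 5.81e-10 and 3.74e-06).

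Kcnk5 and Kcnk3, other two-pore genes, had their highest means at day 15. Kcnk5 encodes TASK-2, a channel opened by alkaline pH, and went from 0.708 ± 0.213 CPM in uninjured muscle to 2.62 ± 0.526 CPM at day 4 and 6.40 ± 4.54 CPM at day 15. The day 15 libraries ran from 3.02 to 15.4 CPM and all exceeded those of day 4, which reached 2.96 CPM. Its log2 fold change was 1.90 ± 0.43 at day 4 (edgeR adjusted p = 0.000324) and 3.10 ± 0.44 at day 15 (edgeR adjusted p = 1.18e-06). At day 11 it was 2.51, and 1.88 without the library labelled female day 11 replicate 3. Kcnk3, which encodes the acid-sensitive TASK-1, stood at 0.528 ± 0.334 CPM in uninjured muscle, 0.337 ± 0.151 CPM at day 4 and 1.79 ± 0.895 CPM at day 15. It passed at day 11 (1.40 ± 0.39, edgeR adjusted p = 0.00263) and day 15 (1.76 ± 0.39, edgeR adjusted p = 0.000362). Its day 7 call (0.97 ± 0.39, edgeR adjusted p = 0.0294) was lost without male uninjured replicate 2, female uninjured replicate 1, female uninjured replicate 2, male day 7 replicate 1 or female day 7 replicate 3, with values from 0.70 to 0.91.

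Several accessory subunits of Kv1 and Kv4 channels rose after injury. Kcnab2 encodes Kvβ2, a cytoplasmic subunit of Kv1 channels. It ran from 0.176 to 1.68 CPM in uninjured muscle (median 0.627), from 18.3 to 31.9 CPM at day 4 (median 24.7) and from 2.51 to 11.8 CPM at day 15 (median 6.34). No uninjured library reached any injured one, and the log2 fold change went from 5.16 ± 0.47 at day 4 (edgeR adjusted p = 7.05e-10) to 3.09 ± 0.45 at day 15 (edgeR adjusted p = 1.86e-06). Kcnab1, which encodes Kvβ1, was at 3.13 ± 0.583 CPM in uninjured muscle and 2.65 ± 0.896 CPM at day 4, and passed only at day 7 (-0.57 ± 0.23, edgeR adjusted p = 0.0274). That call was lost without male uninjured replicate 2, female uninjured replicate 2, male day 7 replicate 3 or female day 7 replicate 3, and a day 11 call appeared without male uninjured replicate 3 (-0.54, edgeR adjusted p = 0.0478). Kcnab1 turned to a positive value at all 4 days (1.07, 0.60, 0.68 and 0.72) with scaling to library size alone.

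Kcnd1 encodes the Kv4.1 pore and Kcnip3 the calcium-binding subunit KChIP3 of Kv4 channels. Kcnd1 went from 0.490 ± 0.162 CPM to 4.25 ± 1.00 CPM at day 4 and 3.63 ± 0.946 CPM at day 15, with log2 fold changes between 2.94 ± 0.30 at day 15 (edgeR adjusted p = 1.27e-08) and 3.40 ± 0.30 at day 7 (edgeR adjusted p = 9.69e-10). Kcnip3 went from 0.497 ± 0.178 CPM to 4.20 ± 1.83 CPM at day 7, a log2 fold change of 3.05 ± 0.32 (edgeR adjusted p = 1.09e-08). For both, uninjured libraries lay below those of every day after injury.

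Of the single-pass KCNE subunits, Kcne4 rose from 1.26 ± 0.715 CPM in uninjured muscle to 6.15 ± 3.12 CPM at day 15, by 2.25 ± 0.34 on the log2 scale (edgeR adjusted p = 2.30e-06). Kcne4 had 0.66 and 0.53 at days 4 and 7, values that passed without female uninjured replicate 1 (1.17 and 1.03, edgeR adjusted p = 0.00206 and 0.00584), and at day 7 also without male day 7 replicate 1 (0.72, edgeR adjusted p = 0.0357). They also passed with scaling to library size alone (1.96 and 1.72, edgeR adjusted p = 1.57e-05 and 8.93e-05). Of 8 adipocyte genes, 8 were higher at day 15 and 1 at day 11, with sums of 266.7 to 584.2 CPM in uninjured muscle and 430.6 to 1023 CPM at day 15. Of 10 endothelial genes, 8 were higher and 1 lower at day 15 and 1 was higher at day 11, with sums of 634.7 to 1086 CPM and 1178 to 1668 CPM. Their part in the day 15 values of Kcne4, Kcnk3 and Kcnk5 was not tested. Kcne3, a partner of Kv3.4 in muscle, had 0.83 ± 0.35 at day 11 (edgeR adjusted p = 0.0377), a call lost without any of 7 single libraries, and 1.01 ± 0.36 at day 15 (edgeR adjusted p = 0.0150). Those 7 were male uninjured replicates 2 and 3, female uninjured replicates 2 and 3, male day 11 replicate 3, female day 11 replicate 2 and the library labelled female day 11 replicate 3. At day 4 Kcne3 had 0.70, which passed without male uninjured replicate 1, female uninjured replicate 1 or female day 4 replicate 3 (0.97, 0.88 and 0.85). Scaled to library size alone, Kcne3 passed there too (2.01) and at day 7 (1.35, edgeR adjusted p = 4.78e-05 and 0.00324). Kcnmb1, the BK subunit of smooth muscle, passed at no day and stood at 0.851 ± 0.307 CPM in uninjured muscle and 0.476 ± 0.222 CPM at day 15. It did pass without female day 7 replicate 1 at day 7 (-1.18), male day 11 replicate 1 at day 11 (-1.07) and female day 15 replicate 2 at day 15 (-1.22, edgeR adjusted p = 0.0200, 0.0412 and 0.0318), and as higher at day 4 with scaling to library size alone (1.38, edgeR adjusted p = 0.00365). The 11 pericyte and smooth muscle genes summed to 6318 to 9787 CPM in uninjured muscle and 4945 to 6144 CPM at day 15, with 4 higher and 2 lower.

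**Figure D4:**
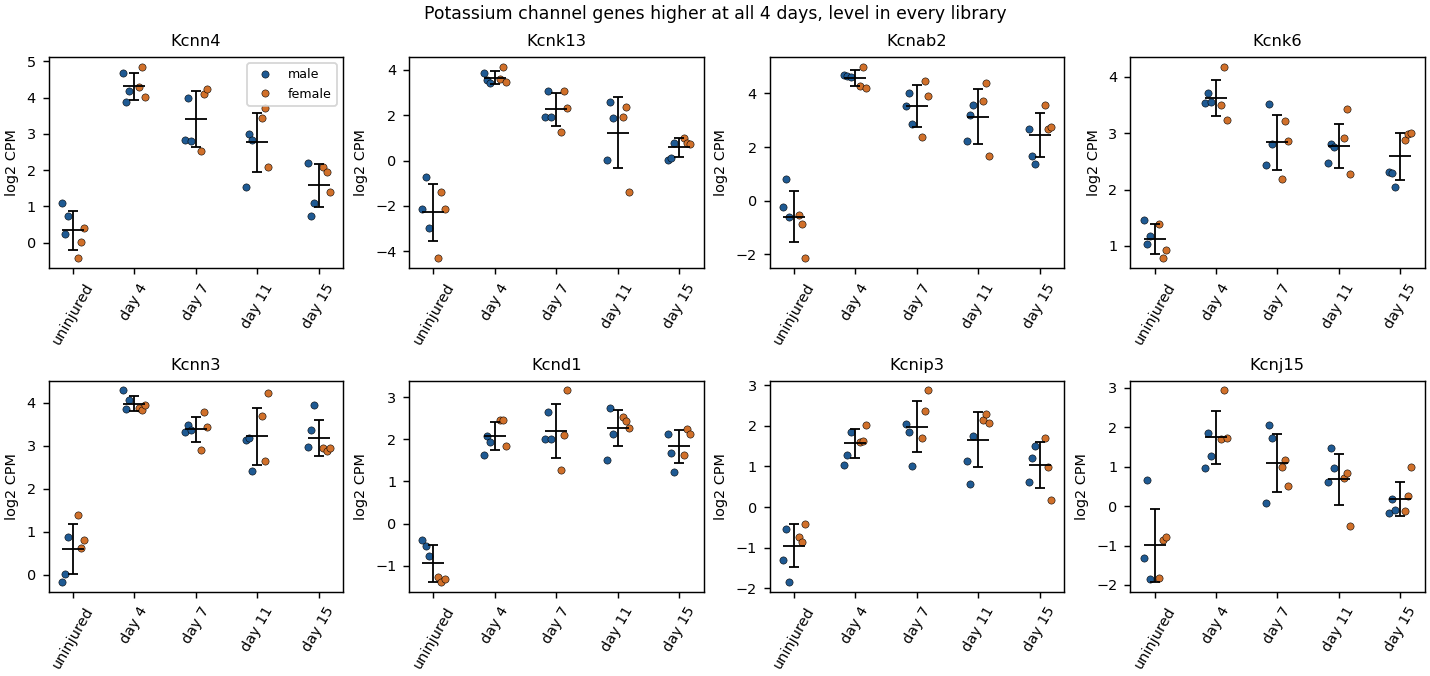
Log2 CPM (vertical axes, prior count 2) of 8 members that were higher at all 4 days, in each of the 30 libraries at the 5 times (horizontal axes), with male libraries in blue and female libraries in orange; black bars are the mean ± SD of the 6 libraries of a time. Kcnn4, Kcnk13, Kcnab2 and Kcnj15 are highest at day 4 and lower by day 15, while Kcnd1 stays near its day 4 level.

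Some members rose from near 0, where a fitted fold change depends on the prior count, so ratios over the 6 libraries are given instead, with 95% exact intervals or, against 0 counts, a bound from a floor of 6 counts over the group. Most low counts are even, as when both reads of a pair are counted, so the intervals treat 2 counts as 1 pair, and they cover counting error only. Kcnh1, the ether-a-go-go channel found in myoblasts before fusion, had 2 counts in uninjured muscle and 199 at day 4, a ratio of 35.1 (6.19 to 1407). Kcnh3, a related channel, had 2 counts in uninjured muscle and 205 at day 7, a ratio of 51.9 (9.06 to 2058). Kcnj10, which encodes the glial channel Kir4.1, had 6 counts in uninjured muscle and 284 at day 4, a ratio of 16.7 (5.60 to 81.9). Kcnj9 had 0 counts in uninjured muscle and 74 at day 4, at least 4.35-fold higher, and Kcnh4 had 0 and 82 at day 7, at least 6.91-fold higher. Kcnmb4, the neuronal BK subunit, had 4 counts in uninjured muscle and 63 at day 11, a ratio of 10.2 (2.63 to 88.8). The bounds of Kcnj9 and Kcnh4 lie above the members' median at each day, so the medians given above are the same with these 2 genes at their bounds.

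Between days 4 and 15 several members came back. From day 4 to day 15, 23 members were higher and 10 lower, beside 52.1% of all genes called (25.1% higher and 27% lower). From day 4 to day 7, 19 were higher and 4 lower, beside 35.2% (18.5% and 16.7%). The day 7 count was not stable to single libraries: 9 members were higher without male day 7 replicate 1, male day 4 replicate 1 or female day 4 replicate 2, 10 without male day 4 replicate 3 and 11 without male day 4 replicate 2. The lower count was 1 without male day 7 replicate 1, male day 7 replicate 3, male day 4 replicate 1 or female day 4 replicate 2, and 2 without female day 4 replicate 3. No member passed between days 7 and 11 with edgeR or DESeq2, beside 0.0584% of all genes, and 5 had an unadjusted edgeR p under 0.05.

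Kcna1 and Kcna2 encode Kv1.1 and Kv1.2, the channels placed beside the nodes of myelinated axons. Kcna2 ran from 2.67 to 10.5 CPM in uninjured muscle (median 5.26), from 0.147 to 1.17 CPM at day 4 (median 0.657) and from 4.13 to 16.5 CPM at day 15 (median 6.88). Day 4 libraries lay below all others of these 3 groups, and day 15 overlapped with uninjured muscle. It had fallen by 3.04 ± 0.42 on the log2 scale at day 4 (edgeR adjusted p = 5.57e-07) and rose by 3.50 ± 0.43 from day 4 to day 15 (edgeR adjusted p = 7.25e-07). The difference from uninjured muscle at day 15 was 0.46 ± 0.39 (edgeR adjusted p = 0.289), but 1.52 with scaling to library size alone (edgeR adjusted p = 0.000707), so whether it came back to or beyond the uninjured level depends on the scaling. Kcna1 had -2.60 ± 0.46 at day 4 (edgeR adjusted p = 1.88e-05) and 0.01 ± 0.43 at day 15 (edgeR adjusted p = 0.989). The 10 Schwann cell genes summed to 99.6 to 361.3 CPM in uninjured muscle, 87.6 to 128.8 CPM at day 4 and 198.4 to 361.2 CPM at day 15, and their part in these values was not tested.

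The sodium-activated channel gene Kcnt1, which encodes Slack, changed side. It went from 0.541 ± 0.345 CPM in uninjured muscle to 0.159 ± 0.0528 CPM at day 4 and 2.08 ± 0.527 CPM at day 15. The log2 fold change was -1.65 ± 0.39 at day 4 (edgeR adjusted p = 0.000562) and 2.03 ± 0.37 at day 15 (edgeR adjusted p = 3.23e-05), and all day 15 libraries lay above all uninjured ones. Its relative Kcnt2, which encodes Slick, was higher at all 4 days, by 1.40 ± 0.32 at day 4 (edgeR adjusted p = 0.000329) and 2.76 ± 0.32 at day 11 (edgeR adjusted p = 4.27e-08). Kcnu1, known as the sperm channel Slo3, went from 2.50 ± 0.909 CPM to 0.446 ± 0.251 CPM at day 4 (-2.51 ± 0.35, edgeR adjusted p = 4.83e-07) and stood at 1.92 ± 0.506 CPM at day 15. Kcnc2, which encodes Kv3.2, rose from 0.294 ± 0.199 CPM to 3.11 ± 1.20 CPM at day 15, by 3.46 ± 0.44 on the log2 scale (edgeR adjusted p = 2.16e-07), unlike Kcnc1 and Kcnc4.

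From day 11 to day 15, 2 members were higher and 1 lower, beside 4.24% of all genes (2% higher and 2.25% lower). Kcna5, which encodes Kv1.5 of vascular smooth muscle and macrophages, ran from 12.6 to 24.9 CPM in uninjured muscle, from 1.64 to 8.10 CPM at day 11 and from 12.2 to 19.1 CPM at day 15. It had been lower at days 4, 7 and 11, and the rise from day 11 to day 15 was 1.63 ± 0.36 on the log2 scale (edgeR adjusted p = 0.0110), with no overlap between the groups. Without female day 7 replicate 1, its day 7 value went from -2.11 to -2.80. Kcne4 rose by 1.24 ± 0.32 (edgeR adjusted p = 0.0261) and Kcnn4 fell by 1.26 ± 0.34 (edgeR adjusted p = 0.0355) between these days. Kcna5 passed without each of the 12 libraries of these days in turn, and Kcne4 did not without male day 11 replicate 3, male day 15 replicate 3, female day 11 replicate 2 or female day 15 replicate 3. Kcnn4 passed without male day 11 replicate 1, male day 15 replicate 1 or the library labelled female day 11 replicate 3, and without none of the other 9. Without that last library Kcnk5 and Kcnt1 were also higher and Kcnk13 also lower. With DESeq2, Kcnj12 was also higher.

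**Figure D5:**
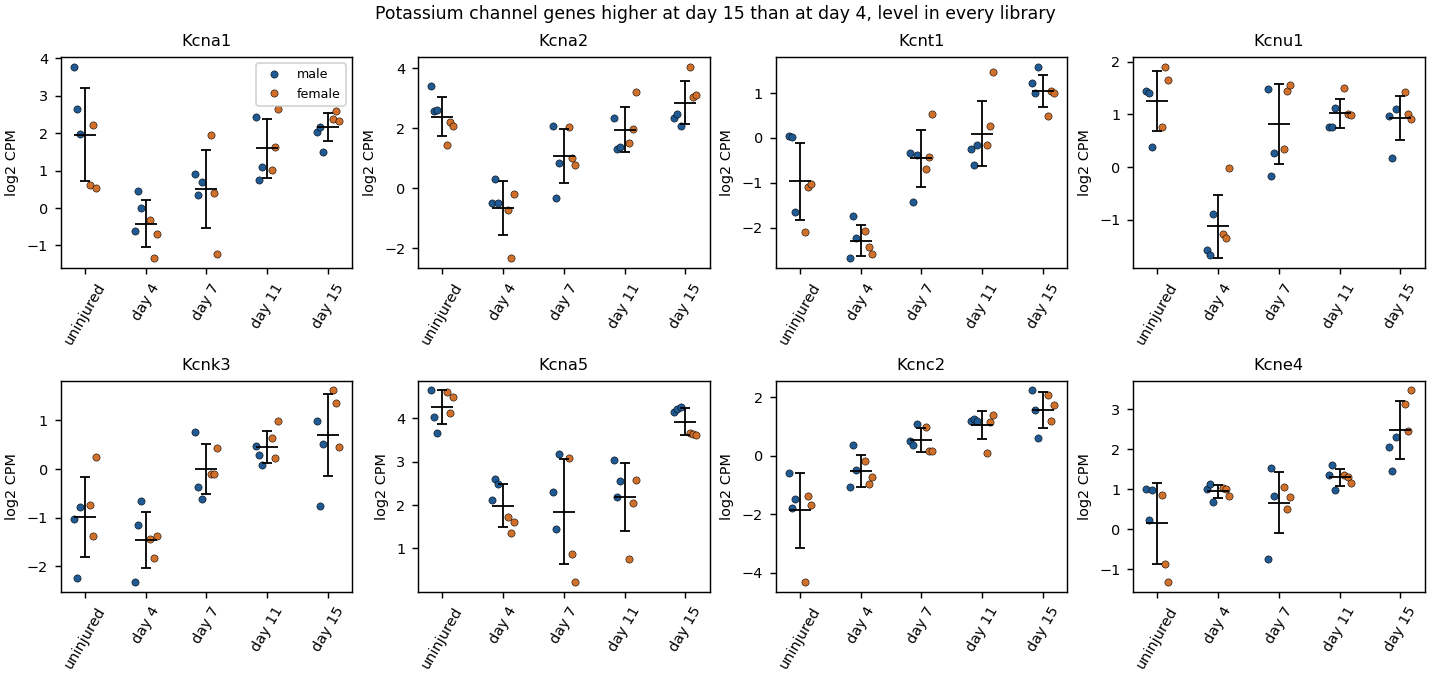
Log2 CPM (vertical axes, prior count 2) of 8 members that were higher at day 15 than at day 4, in each of the 30 libraries at the 5 times (horizontal axes), with male libraries in blue and female libraries in orange; black bars are the mean ± SD of the 6 libraries of a time. Kcna1, Kcna2, Kcnu1 and Kcna5 dip after injury and reach the range of uninjured muscle by day 15, while Kcnt1, Kcnc2 and Kcne4 end above the uninjured mean.

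Kcnh2, which encodes the ERG channel, passed at day 7 alone among the 4 days (0.82 ± 0.24, edgeR adjusted p = 0.00331), with 4.59 ± 1.98 CPM in uninjured muscle, 8.11 ± 1.04 CPM at day 7 and 3.76 ± 0.906 CPM at day 15. It also passed without single uninjured libraries at day 11 (0.68 without male uninjured replicate 3, edgeR adjusted p = 0.00908) and day 15 (-0.47 without male uninjured replicate 2, edgeR adjusted p = 0.0474). Scaled to library size alone it passed as higher at all 4 days, with 1.41, 2.00, 1.54 and 0.74 (edgeR adjusted p from 3.42e-07 to 0.0166), and its day 15 sign turned.

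A list of 31 other genes of membrane excitability, among them sodium, calcium and chloride channels, the sodium pump and partners of potassium channels, was set beside the family. Of 30 tested, 7 were higher and 20 lower at day 4, 6 and 17 at day 7, 4 and 18 at day 11, and 3 and 17 at day 15. Beside them, 40.1% of all genes were higher and 33% lower at day 4, and 41.6% and 29.9% at day 7. The shares were 42.7% and 29.7% at day 11, and 39.7% and 29.3% at day 15. Scn4a, the adult muscle sodium channel, had a log2 fold change of -2.46 ± 0.40 at day 4 (edgeR adjusted p = 5.42e-06) and -2.18 ± 0.40 at day 15 (edgeR adjusted p = 3.15e-05). Clcn1, the muscle chloride channel, had -2.43 ± 0.51 at day 4 (edgeR adjusted p = 0.000142).

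Male and female muscle were compared in the same fit. In uninjured muscle 0 of 65 members differed between the sexes with edgeR, 4 had an unadjusted p under 0.05, and 0.642% of all genes were called. DESeq2 called 1 member, Kcnt2, and the fit of only the 6 uninjured libraries called 1, Kcng4. The smallest adjusted p of the 4 was that of Kcnt2 (-1.98 ± 0.50 in females against males, edgeR adjusted p = 0.0659), which passed without male uninjured replicate 1. A joint test of whether the injury response differed between the sexes called 0 members with edgeR and with DESeq2, and 6 had an unadjusted edgeR p under 0.05, beside 0.035% of all genes called. The library labelled female day 11 replicate 3, with its male pattern, was counted as female in that test. With edgeR, 0 members were also called when any 1 library was left out, that one included.

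Promoters were read for members whose transcripts moved far in either direction, to set the sequence beside the values. RefSeq starts on GRCm38.p6 were available for 67 of the 92 members, with 92 starts in all, and the 250 bases before each start were searched on both strands for CAGCTG, the E-box form bound by myogenic factors of the MyoD family. Kcng4 and Kcnn1 are shown as falling members whose windows hold the motif, Kcna7 as a falling member and Kcnk13 as a rising one whose windows do not, with CAGCTG in capitals.
Kcng4, chr8:119635681-119635930, minus strand: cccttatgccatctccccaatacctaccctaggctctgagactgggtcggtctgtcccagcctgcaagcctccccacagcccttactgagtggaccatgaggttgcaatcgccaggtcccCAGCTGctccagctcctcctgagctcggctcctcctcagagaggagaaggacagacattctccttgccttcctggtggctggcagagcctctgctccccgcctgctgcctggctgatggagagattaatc
Kcnn1, chr8:70863259-70863508, minus strand, 1 of 2 listed starts: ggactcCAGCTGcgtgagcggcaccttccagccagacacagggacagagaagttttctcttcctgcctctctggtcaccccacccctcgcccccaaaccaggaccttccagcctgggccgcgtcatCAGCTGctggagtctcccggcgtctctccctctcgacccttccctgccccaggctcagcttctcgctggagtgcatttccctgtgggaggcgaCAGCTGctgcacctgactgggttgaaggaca
Kcna7, chr7:45405710-45405959, plus strand: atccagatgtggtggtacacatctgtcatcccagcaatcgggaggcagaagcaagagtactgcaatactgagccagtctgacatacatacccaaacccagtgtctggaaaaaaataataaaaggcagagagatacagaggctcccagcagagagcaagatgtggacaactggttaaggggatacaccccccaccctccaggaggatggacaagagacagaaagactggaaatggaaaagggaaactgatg
Kcnk13, chr12:99964249-99964498, plus strand: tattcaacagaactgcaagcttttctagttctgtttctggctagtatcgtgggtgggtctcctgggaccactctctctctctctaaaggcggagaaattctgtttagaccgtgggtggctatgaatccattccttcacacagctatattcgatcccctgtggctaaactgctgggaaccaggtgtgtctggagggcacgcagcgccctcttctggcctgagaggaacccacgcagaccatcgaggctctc

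The Kcng4 window holds 1 CAGCTG, this Kcnn1 window holds 3 and the Kcna7 and Kcnk13 windows 0, as do those of Kcnc4 and Kcnc1. CAGCTG was found before 22.8% of the 92 member starts and 13% of all 32851 listed starts. It was found before 6 of 14 starts of members lower at day 4, which belong to Kcna2, Kcng4, Kcnj13, Kcnj2 and Kcnn1, and before 6 of 24 starts of members higher at day 4, of which Kcnc2 holds 4. By gene, that is 5 of 13 lower and 3 of 16 higher members, beside 5 of 17 members not called at day 4. Other motifs searched on both strands were the MEF2 motif, TGANTCA (an AP-1 form) and GAGGAAGT (a PU.1 form), found before 1.09%, 4.35% and 0% of member starts and 0.35%, 6.75% and 2.44% of all starts. A match is a description of these letters in this window and not a site of binding.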

How the data were processed

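Total RNA of mouse tibialis anterior was sequenced in 30 libraries. The deposited values are whole-number read counts per gene symbol. The submitters' processing notes name STAR, edgeR and the build mm39; the sources used here do not give the counting program, strand setting or annotation, so overlapping and antisense genes cannot be told apart. Of counts from 1 to 20, 65.5% to 77.5% were even.

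From the counts, R 4.3.3 with edgeR 4.0.16 was run on all 30 libraries with 1 mean per group, its filter on low counts, trimmed mean of M-values scaling and the quasi-likelihood test. Days were compared with the average of both sexes, p-values were adjusted by Benjamini-Hochberg over 17136 genes, and the threshold was 0.05. The standard error is the fold change divided by the square root of F. CPM uses effective library sizes, and log2 CPM a prior count of 2. CPM per kilobase uses union exon lengths of GENCODE M21 on GRCm38, an approximation for counts made on mm39. DESeq2 1.42.0, other scalings, other filters, a replicate block, only the compared groups, and leaving out each library were the alternatives; halving the counts was added after seeing the data. Simulated counts for the day 4 comparison (16599 genes) held 97 genes with a log2 change of 1 and 99 with one of 2. Of these, 53.6% and 89.9% were recovered, with 6 false calls. How many false calls arise where most genes differ, as in the measured day 4 comparison (73.1% called), was not tested.

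The members, the gene lists and the rule for named members were chosen with earlier results of these data known. The rule named, at each day, the 6 largest rises and 6 largest falls among called members with a mean of at least 1 CPM over the 30 libraries, together with a fixed set of members with known roles in muscle, smooth muscle or immune cells. Kcna1, Kcnt1, Kcnu1, Kcnh3, Kcnh4, Kcnj9 and Kcnj13 were named after their values were seen. Some members and some genes of the excitability list are counted in the totals but are not reported here by name. No 2 libraries of a group were near-identical: the lowest chi-square per degree of freedom between them was 13.4. Depth limits what members of few counts can show, all the more since many low counts come in pairs.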

Additional observations from a re-analysis of the deposited data

Results flagged for a closer look

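Within the 6 libraries of a time, the highest or lowest library stood far from the rest in 16 of 175 groups of 6 over 35 of the 37 named members (9.14%). The nominal rate of about 1 in 20 holds for independent, normally distributed groups. These groups share the same 30 libraries, so the 9.14% cannot be compared with it. Of the 16, 9 were the library female day 4 replicate 2, which also held the least mature fibre RNA of its day. It was lowest for Kcna7 (6.41 CPM), Kcnc1 (13.98), Kcnc4 (2.22), Kcnj11 (13.6), Kcnj8 (2.34), Kcnma1 (7.93), Kcnn1 (1.99) and Kcnn2 (0.110 CPM), and highest for Kcnab1 (4.42 CPM). Without it, day 4 still had 23 members higher and 21 lower than uninjured muscle.

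The other 7 were spread over genes and libraries. Kcnc2 was at 0 CPM in female uninjured replicate 1 and at 1.01 CPM in female day 11 replicate 1, the lowest of their times. Kcnh1 was at 0.0879 CPM in female uninjured replicate 3 and at 0 in the other 5 uninjured libraries. Without that library, its fitted log2 fold change at day 4 went from 5.61 to 7.31. Kcnf1 was lowest in female day 7 replicate 2 (0.559 CPM), Kcnj11 in female day 15 replicate 1 (25.1 CPM) and Kcnk5 in female day 4 replicate 3 (1.60 CPM). Kcnj15 was highest in female day 15 replicate 3 (1.94 CPM).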

How the results depend on the processing

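Of 1776 values of named members with 1 library left out, 1735 kept their side of the threshold, 27 lost the threshold, 14 gained it and 0 reversed. A value counted as reversed only if its sign turned and it passed with or without the library. A turn of sign in a value that passed in neither fit was not counted. Leaving out 1 library, counts of members called higher and lower ranged from 23 to 27 and 21 to 22 at day 4, 27 to 31 and 18 to 21 at day 7, 30 to 36 and 15 to 18 at day 11, and 29 to 31 and 13 to 14 at day 15. From day 4 to day 7 they ranged from 9 to 21 and 1 to 5, from day 11 to day 15 from 1 to 4 and 0 to 2, and for females against males in uninjured muscle from 0 to 1. Scaling to library size alone reversed these values, each of which passed with it or with the main scaling: Kcnab1 (1.07 at day 4, 0.60 at day 7, 0.68 at day 11 and 0.72 at day 15), Kcnq5 (1.07 at day 4), Kcnj2 (0.36 at day 7 and 0.19 at day 11), Kcnj8 (0.0188, 0.28 and 0.0097 at days 7, 11 and 15), Kcna2 (0.81 at day 11) and Kcnh2 (0.74 at day 15). Values that passed with neither scaling also turned positive with it. They were Kcnk3 at day 4 (0.69), Kcna5 (0.67) and Kcnn2 (0.29) at day 15, and Kcnmb1 at days 7, 11 and 15 (0.34, 0.32 and 0.21). With it 13 of 148 values of named members gained the threshold, all above 0, among them Kcne3 and Kcne4 at days 4 and 7, Kcnh2 at days 4 and 11, Kcnmb1 and Kcnmb4 at day 4, Kcnq5 at days 7, 11 and 15 and Kcna2 at day 15. It gave 38 members higher at day 4, 10 lower at day 7, 10 lower at day 11, 8 higher from day 4 to day 7, and 1 higher and 0 lower from day 11 to day 15. Without a low-count filter 2 members were lower from day 4 to day 7. With CPM above 1 in 3 libraries, which left 49 members, 2 were lower from day 4 to day 7 and 6 from day 4 to day 15. With only the compared groups in the fit, 0 were lower from day 11 to day 15 and 1 differed between the sexes in uninjured muscle, as 1 did with DESeq2. In that fit Kcna5, Kcnn2 and Kcnq5 also passed at day 15 and Kcnab1 and Kcnk3 at day 7, Kcne3 at day 11 and Kcnj15 at day 15 did not; with DESeq2 Kcne3 and Kcne4 also passed at day 4, and with a replicate block Kcnab1 at day 11. Halved counts left 54 members, with 18 higher and 19 lower at day 4 and 26 and 13 at day 15. The causes were not tested. Leaving out a library moved Kcnj10 at day 15 from 4.38 to 3.66 and Kcnmb4 at day 11 from 4.28 to 3.69.

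Replicate numbers showed little sign of pairing libraries: deviations from the group means correlated at 0.0125 on average between same-numbered libraries and at -0.00633 between others. For each library, correlations with the other groups were averaged by replicate number. The highest average was that of its own number in 12 of 30 cases, with 3 numbers to choose from. With a replicate block, 23 members were higher and 21 lower at day 4, 29 and 19 at day 7, 35 and 17 at day 11, 32 and 13 at day 15, 15 and 4 from day 4 to day 7, and 24 and 9 from day 4 to day 15.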
